A study of Mus musculus with 10 samples.

Results

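The 10 genes described here belong to the BCL2 family, which sets whether a cell opens its mitochondria and dies. They are the survival genes Bcl2, Bcl2l1 and Mcl1, the pore-forming effectors Bax and Bak1, and the BH3-only genes Bid, Bad, Bcl2l11, Bbc3 and Pmaip1. They were chosen by symbol from a table of 23240 genes, and all 10 were among the 10905 genes tested. The data are RNA-seq levels in progenitor cells sorted from mouse bone marrow. There are 5 groups with 2 libraries each, 10 in all. Every mouse carried the Tg(vav-Cre) transgene, in which a Vav promoter drives Cre recombinase in blood cells. The Runx1wt/wt mice (Runx1+/+-Tg(vav-Cre), called wild type below) had intact alleles of Runx1, a transcription factor of blood cell development. The Runx1Δ/Δ mice (Runx1fl/fl-Tg(vav-Cre), called Runx1-deleted) had floxed alleles. Cells were lin- sca- kit+ CD41- CD105- and were split on CD16/32 and CD150. Granulocyte and monocyte progenitors (GMP) were CD16/32+ CD150-, megakaryocyte and erythroid progenitors (MEP) were CD16/32- CD150+, and a population called XMP was CD16/32+ CD150+. GMP and MEP came from both genotypes and XMP from Runx1-deleted mice only. The labels give neither the age of the mice nor whether the libraries of a group came from separate animals, so p-values measure the spread between these libraries, which may be technical.

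BCL2, BCL-XL (from Bcl2l1) and MCL1 hold BAX and BAK in check on the outer mitochondrial membrane. BH3-only proteins carry death signals: they occupy the survival proteins or activate BAX and BAK, which then form pores, release cytochrome c and start the caspases. In blood cells MCL1 is known for the survival of stem and myeloid cells, BCL-XL for that of platelets and maturing red cells, and BCL2 for that of lymphocytes, while BIM (from Bcl2l11) mediates death on loss of cytokine signals.

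Levels are given in RPKM, a read number scaled by gene length and library depth, so that it can be compared between genes. Fold changes are differences of log2(RPKM + 1) from limma with their standard error, and a gene was called where the Benjamini-Hochberg adjusted p over all tested genes was under 0.05. Means carry the SD over n = 2 libraries. With 2 libraries against 2 the smallest two-sided exact permutation p of a single gene is 0.333, so that test cannot pass for any gene alone, and the p-values below rest on limma's spread over all genes and groups. The libraries held 20.8 to 54.9 M reads, and replicates correlated at r = 0.968 to 0.994. The libraries differed by gene length: on the log2 scale, the deviation of long genes (at least 4617 bp) minus that of short genes (at most 1539 bp) came to -0.31 and -0.38 for the wild-type GMP libraries and to 0.30 and 0.22 for the Runx1-deleted GMP libraries. Replicate 1 of wild-type MEP stood apart at -0.94, and the other 5 libraries lay between -0.003 and 0.51. Both wild-type GMP libraries were run on other lanes than the Runx1-deleted ones, so lane and genotype cannot be told apart in GMP. Whole-gene Runx1 RPKM was higher in the Runx1-deleted libraries (63.0 to 72.3 in GMP, 36.8 to 41.5 in MEP) than in wild-type GMP (26.8 to 28.5) and MEP (17.2 to 25.5), and it does not check whether the floxed exon was lost. The gates fitted their markers: 10 GMP genes summed to 7960 to 12300 RPKM in GMP and at most 191 elsewhere, and 10 erythroid genes to 1750 to 1970 in MEP, 516 to 724 in XMP and at most 85.2 in GMP. In such bulk libraries fewer cells of a type and less RNA per cell cannot be told apart.

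Among the survival genes, Bcl2 was lower and Bcl2l1 higher in Runx1-deleted progenitors, of which only the Bcl2 difference passed the test. In XMP, Bcl2l1 reached its highest level, and Mcl1 stayed within a narrow range throughout. The plot of levels by library shows this for each gene.

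**Figure D1:**
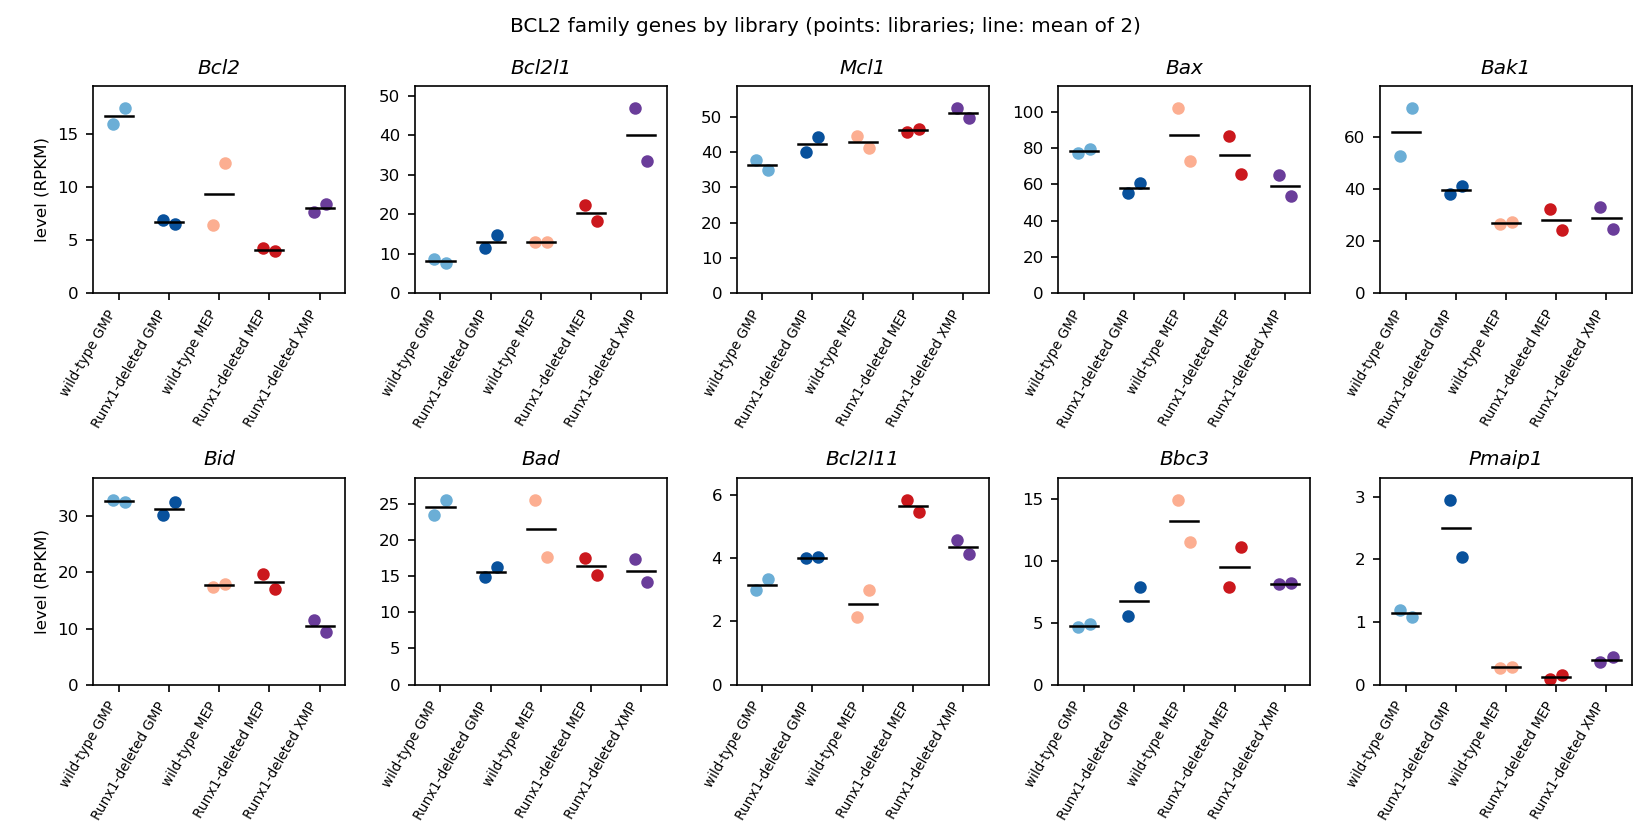
RPKM (vertical axis, from 0, scaled to each gene) of the 10 genes in the 10 libraries, by group; points are libraries and lines the mean of 2. Bcl2 is highest in wild-type GMP (15.9 and 17.5 RPKM), Bcl2l1 in XMP (46.9 and 33.5 RPKM), and Pmaip1 exceeds 1 RPKM only in the 4 GMP libraries.

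Bcl2 encodes the founding survival protein of the family. The 250 bases before its RefSeq start are shown because it was called in both Runx1 comparisons, and the search covered both strands. The RUNX motif was searched with the letters TGTGGT and with the variant letters TGCGGT. The GATA motif was searched with the letters AGATAA and with the variant letters TGATAA. The letters for STAT were TTCNNNGAA, those for FOXO were TGTTTAC, and those for the factor family named C/EBP were TTGCNNAA. The window lies on the minus strand at chr1:106714291-106714540 in GRCm38.p6, a later build than that of the expression table, and it holds none of these letters.
Bcl2: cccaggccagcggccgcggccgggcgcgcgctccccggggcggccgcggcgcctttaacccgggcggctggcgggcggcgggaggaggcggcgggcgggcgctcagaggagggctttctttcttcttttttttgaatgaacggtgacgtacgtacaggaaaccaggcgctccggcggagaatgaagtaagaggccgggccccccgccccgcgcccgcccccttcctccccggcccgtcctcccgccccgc
Its GC content was 74.8%, against a median of 52.4% over all 32851 such windows. RUNX letters stood in 18.6% of all windows, GATA in 16.6%, STAT in 7.0%, FOXO in 3.2% and C/EBP in 9.6%.

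In wild-type GMP, Bcl2 was measured at 15.9 and 17.5 RPKM, and in Runx1-deleted GMP at 6.88 and 6.52 RPKM. Both deleted libraries lay below both wild-type ones. The mean was 2.49-fold lower after deletion, and Bcl2 fell by 1.2 ± 0.25 on the log2 scale (limma, adjusted p = 0.016). In MEP the levels were 6.43 and 12.3 RPKM in wild type and 4.23 and 3.95 RPKM in deleted cells. The deleted libraries were again the lower ones, and the wild-type MEP libraries lay far apart. Bcl2 fell by 0.97 ± 0.25 in MEP (adjusted p = 0.0354), a 2.29-fold lower mean. The wild types differed too: Bcl2 was 1.78-fold higher in GMP than in MEP, by 0.83 ± 0.25 (adjusted p = 0.0328).

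These Bcl2 calls depended on single libraries. In GMP the call was lost without wild-type replicate 1 (adjusted p = 0.066), wild-type replicate 2 (0.18), deleted replicate 1 (0.115) or deleted replicate 2 (0.139), or with no filter on low genes (0.0584), while the difference stayed between -1.26 and -1.14 without a GMP library. In MEP it was lost without either deleted MEP library (0.118 and 0.197), either GMP library of wild type (0.0653 each) or of deleted cells (0.0659 and 0.0658), or either XMP library (0.0539 and 0.0541). It was also lost with no filter (0.0963), a pseudocount of 5 (0.0544), a fit of only the groups compared (0.196) or a weight per group (0.112). Without wild-type MEP replicate 1, the library that stood apart, Bcl2 fell by 1.39 in MEP (adjusted p = 0.00123), and without replicate 2 by 0.55 (0.0244). Between wild types it was lost without GMP replicate 1 (0.0939) or 2 (0.184), without either deleted GMP library (0.0572 each), and without MEP replicate 1, where the difference was 0.41 (0.0722); without MEP replicate 2 it was 1.25 (0.000316). It was lost too with no filter (0.0834), only the groups compared (0.0969) or group weights (0.0805). Bcl2 is the longest of the 10 genes (7738 bp, worked back from the RPKM values). Removing the length trend moved its difference to -1.48 in GMP (adjusted p = 0.000253) and to -1.26 in MEP (0.000482). A list of 11 lymphoid genes moved the same way, from 297 to 350 RPKM summed in wild-type GMP to 122 to 150 in deleted GMP, and from 137 to 195 to 13.5 to 17.0 in MEP. Most of that sum was Nkg7, which encodes a granule membrane protein. Without Nkg7 the list stood at 27.1 to 33.4 and 31.6 to 35.4 RPKM in wild-type and deleted GMP, and at 14.9 to 17.1 and 8.85 to 9.4 in MEP. The T cell gene Cd3e reached at most 0.134 RPKM in any library.

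XMP held Bcl2 at 7.67 and 8.43 RPKM, above both deleted MEP libraries and both deleted GMP libraries. The mean was 1.97-fold that of deleted MEP, a difference of 0.83 ± 0.25 that missed the threshold (adjusted p = 0.0683) but passed without wild-type MEP replicate 1 (0.00312) or 2 (0.00308), and the difference from deleted GMP was 0.23 ± 0.25 (0.637). By group mean the order was wild-type GMP, wild-type MEP, XMP, deleted GMP and deleted MEP, in which wild-type MEP overlapped both XMP and deleted GMP and the others lay apart. Between 1223 and 4911 reads per library stood behind these values.

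Bcl2l1 had the widest range of the 10 genes in group means of log2(RPKM + 1), 2.15 against 1.8 for Bcl2 and 1.62 for Pmaip1. Its highest group mean was 4.92-fold its lowest, while the low-level Pmaip1 spanned 19.9-fold by that ratio. XMP stood at 46.9 and 33.5 RPKM, deleted GMP at 11.4 and 14.7 RPKM and deleted MEP at 22.2 and 18.4 RPKM. Both XMP libraries exceeded every other library. The gene was 3.08-fold higher in XMP than in deleted GMP, by 1.54 ± 0.21 (limma, adjusted p = 0.000224), and 1.98-fold higher than in deleted MEP, by 0.94 ± 0.21 (0.0185). These 2 comparisons share the XMP libraries. The first call held in every alternative run, and the second was lost without deleted MEP replicate 1 (0.0514) or 2 (0.13) or XMP replicate 1 (0.195), with no filter (0.0519) and with only the groups compared (0.0583). Across the deleted groups the sum of the megakaryocyte genes moved with it. The 10 listed summed to 1720 to 2090 RPKM in XMP, 767 to 883 in deleted MEP and 189 to 203 in deleted GMP. In wild-type GMP they summed to 58.1 to 68.2 RPKM. Between the MEP genotypes the sum moved the other way: in wild-type MEP, where Bcl2l1 was lower, it was 901 to 940 RPKM. Single genes of the list differed in this. Pf4 stood at 466 to 590 RPKM in wild-type MEP and 158 to 220 in deleted MEP. Itga2b was higher in deleted MEP (203 to 218 RPKM) than in wild-type MEP (133 to 163), as was Treml1 (means of 125 and 35.8). Pf4 in XMP (157 to 349 RPKM) overlapped deleted MEP. Levels of the other listed genes are not given here. The part of the megakaryocyte genes in the result was not tested.

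In wild-type cells Bcl2l1 was lower, at 8.62 and 7.71 RPKM in GMP and 12.8 and 12.8 RPKM in MEP. Every deleted library of GMP lay above both wild-type GMP libraries, and the same held in MEP. The ratio of means was 1.60 in GMP and 1.58 in MEP. Neither difference passed the test: it was 0.61 ± 0.21 in GMP (95% interval 0.15 to 1.06, adjusted p = 0.118) and 0.62 ± 0.21 in MEP (0.16 to 1.07, adjusted p = 0.103). In a fit of only the groups compared the GMP difference passed (0.0424), as did those of Bad (0.0247) and Bak1 (0.0477). That fit called 1931 of 10364 genes, against 569 of 10905 in the main fit. Between the wild types the difference was -0.60 ± 0.21 (0.0638), which passed with quantile normalization (0.0357), median centring (0.0491) or the length trend removed (0.041). With a replicate block in which the numbers of deleted GMP are crossed, chosen after seeing the data, Bcl2l1 passed in MEP (0.0409) and between the wild types (0.0235). From highest to lowest the groups were XMP, deleted MEP, deleted GMP, wild-type MEP and wild-type GMP, with overlap only between deleted GMP and wild-type MEP.

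Mcl1 encodes a survival protein with a short half-life. Its lowest library stood at 34.9 RPKM (wild-type GMP), its median at 44.4 and its highest at 52.5 RPKM (XMP), a 1.51-fold span on 2535 to 7699 reads. The group means were 36.3 ± 2.03 RPKM in wild-type GMP, 42.3 ± 2.97 in deleted GMP, 42.8 ± 2.39 in wild-type MEP, 46.3 ± 0.606 in deleted MEP and 51.2 ± 1.91 in XMP. No difference of Mcl1 passed limma in the comparisons made here, which did not pair XMP with wild-type GMP. The Runx1 differences were 0.21 ± 0.15 in GMP (95% interval -0.12 to 0.55, adjusted p = 0.413) and 0.11 ± 0.15 in MEP (-0.22 to 0.45, 0.698). In XMP the difference was 0.27 ± 0.15 from deleted GMP (0.298) and 0.14 ± 0.15 from deleted MEP (0.709).

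Because RPKM is scaled by length, the 3 survival genes can be added within a library. Their sum was 58.5 to 72.3 RPKM in the 8 GMP and MEP libraries and 107 and 91.7 RPKM in XMP. Mcl1 was the largest share in every library, between 49.1% and 69.8%. Bcl2 made up 25.6% and 29.1% of the sum in wild-type GMP but 11.8% and 9.9% in deleted GMP, where Bcl2l1 stood at 19.5% and 22.4% against 13.8% and 12.8%. In deleted MEP, Bcl2 made up 5.9% and 5.7% and Bcl2l1 30.7% and 26.6%. The share of Bcl2l1 was largest in XMP, at 43.8% and 36.5%. These shares describe transcripts, with no test of their own. The length trend of the libraries was not removed from them, nor from the sums and shares of the effectors and BH3-only genes below. They therefore carry it where genes differ in length.

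**Figure D2:**
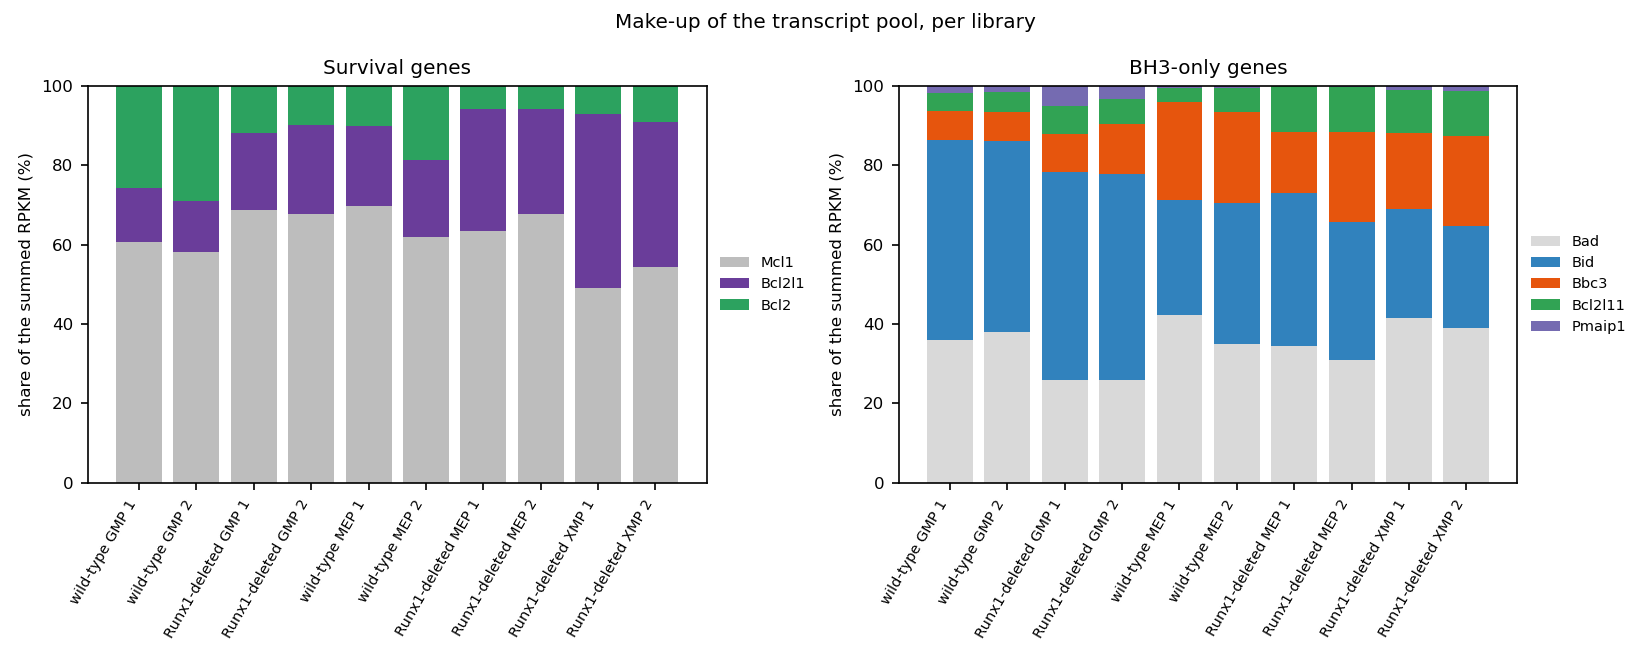
Share (%) of the summed RPKM held by each survival gene (left) and each BH3-only gene (right), 1 bar per library. Green for Bcl2 shrinks from 25.6% and 29.1% in wild-type GMP to 11.8% and 9.9% in Runx1-deleted GMP, purple for Bcl2l1 is widest in XMP (43.8% and 36.5%), and Bid holds about as much as all other BH3-only genes together in GMP (48.2% to 52.5%).

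The effectors Bax and Bak1 differed in how they separated the lineages. Bak1 was higher in wild-type GMP than in wild-type MEP, whereas Bax was not called in any comparison. Bax stood at 77.2 and 79.4 RPKM in wild-type GMP, 55.3 and 61.0 in deleted GMP, 102 and 72.9 in wild-type MEP, 86.9 and 65.7 in deleted MEP and 65.0 and 53.7 in XMP. The replicates of MEP spread as widely as the groups. Deleted GMP lay below wild-type GMP, by a difference of -0.42 ± 0.21 that was not called (adjusted p = 0.254), and the MEP genotypes overlapped (-0.19 ± 0.21, 0.626). Bax is the shortest of the 10 genes (869 bp, worked back in the same way). With the length trend removed its Runx1 difference was 0.01 in GMP (0.983) and 0.16 in MEP (0.574), so its sign turned in both.

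**Figure D3:**
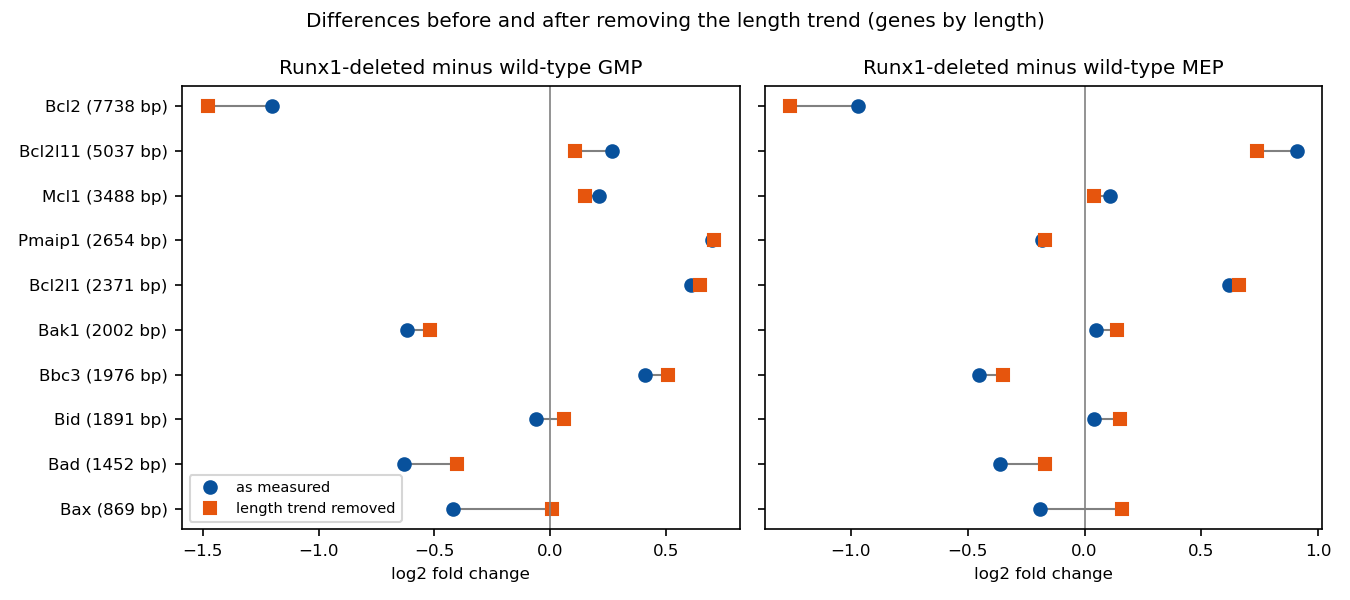
Runx1-deleted minus wild-type log2 fold change (horizontal axis) of the 10 genes ordered by length, in GMP (left) and MEP (right); circles are the values as measured and squares those after removing each library's trend with gene length. Bcl2 moves farther from 0 (from -1.2 to -1.48 in GMP), and Bax moves to 0.01 in GMP.

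Bak1 was measured at 52.9 and 71.2 RPKM in wild-type GMP and 26.7 and 27.5 RPKM in wild-type MEP. The groups were well apart, and the ratio of 2.29 corresponded to a difference of 1.15 ± 0.21 (limma, adjusted p = 0.00203). In deleted GMP the level was 38.1 and 41.1 RPKM, below both wild-type GMP libraries, but this difference of -0.62 ± 0.21 was not called (0.12). Deleted MEP (32.3 and 24.3 RPKM) and XMP (33.2 and 24.8 RPKM) overlapped each other and wild-type MEP. Bak1 made up 40.3% to 47.3% of the summed RPKM of both effectors in GMP, 20.7% to 27.4% in MEP, and 33.8% and 31.6% in XMP. That sum was 130 and 151 RPKM in wild-type GMP and 93.4 and 102 in deleted GMP.

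Each of the BH3-only genes except Bad was called in at least 1 comparison, and each in a different set. Bid and Pmaip1 were the GMP genes of this class, Bbc3 was higher in MEP, and Bcl2l11 was higher in MEP after Runx1 deletion.

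Bid encodes the protein that caspase-8 cleaves to link death receptors to mitochondria. It stood at 33 and 32.5 RPKM in wild-type GMP, 30.2 and 32.6 in deleted GMP, 17.4 and 18.0 in wild-type MEP, 19.7 and 17.0 in deleted MEP and 11.5 and 9.41 in XMP. The genotypes overlapped in both lineages, and XMP was below every other library. Bid was 1.85-fold higher in wild-type GMP than in wild-type MEP, by 0.85 ± 0.17 (limma, adjusted p = 0.00305), a call lost with group weights (0.053). In XMP it was 3-fold lower than in deleted GMP, by -1.50 ± 0.17 (5.36e-05), and 1.75-fold lower than in deleted MEP, by -0.76 ± 0.17 (0.0185). The first of these held in every alternative. The second was lost without deleted MEP replicate 1 (0.145) or 2 (0.0553) and without XMP replicate 1 (0.0582) or 2 (0.18). Its Runx1 differences were -0.06 ± 0.17 in GMP (95% interval -0.43 to 0.31) and 0.04 ± 0.17 in MEP (-0.32 to 0.41), neither called (0.848 and 0.897).

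Bad encodes a BH3-only protein that growth factor signals switch off by phosphorylation. Its libraries ranged from 14.1 RPKM (XMP) to 25.6 RPKM (wild-type GMP), and no difference was called. The largest was between the GMP genotypes, at 23.5 and 25.6 RPKM in wild type and 14.8 and 16.3 in deleted cells (-0.63 ± 0.20, adjusted p = 0.106). These 2 groups did not overlap. With the length trend removed the difference was -0.40 (0.119).

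Bcl2l11 encodes BIM, which binds all the main survival proteins. The 2 RefSeq windows of 250 bases outside annotated exons are shown because the gene was called in MEP after Runx1 deletion. Capitals mark RUNX and FOXO letters. The first, on the plus strand at chr2:128125788-128126037 (GRCm38.p6), holds the RUNX letters TGCGGT on the minus strand at -30 to -25 and the FOXO letters TGTTTAC on the minus strand at -227 to -221, counted back from the base before the start. The second, at chr2:128127325-128127574 on the plus strand, holds TGCGGT at -211 to -206.
Bcl2l11 first start: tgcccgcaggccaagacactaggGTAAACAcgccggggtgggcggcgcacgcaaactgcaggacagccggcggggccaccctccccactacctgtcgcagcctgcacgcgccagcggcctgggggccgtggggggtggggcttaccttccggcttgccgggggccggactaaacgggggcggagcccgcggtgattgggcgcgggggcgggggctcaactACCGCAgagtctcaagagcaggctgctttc
Bcl2l11 second start: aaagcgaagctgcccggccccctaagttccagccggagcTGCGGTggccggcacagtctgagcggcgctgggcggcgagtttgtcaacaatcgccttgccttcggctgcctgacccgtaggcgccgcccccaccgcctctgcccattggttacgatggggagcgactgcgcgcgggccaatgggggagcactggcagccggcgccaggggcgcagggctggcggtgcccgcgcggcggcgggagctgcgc
Neither window held GATA, STAT or C/EBP letters, and the match shares over all windows are given beside Bcl2.

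Wild-type MEP held Bcl2l11 at 2.13 and 3 RPKM and deleted MEP at 5.85 and 5.46 RPKM. Both deleted libraries lay above every other library. The gene rose 2.21-fold, by 0.91 ± 0.18 (limma, adjusted p = 0.0112). Its call was lost without deleted MEP replicate 1 (0.0779) or 2 (0.069), under group weights (0.0815) or in a fit of just these groups (0.14), and held without wild-type MEP replicate 1 (0.73, adjusted p = 0.023). In GMP the levels were 2.98 and 3.33 RPKM in wild type and 4.01 and 4.03 RPKM in deleted cells, a difference of 0.27 ± 0.18 (0.381) between groups that did not overlap. XMP stood at 4.56 and 4.12 RPKM, between deleted MEP and deleted GMP. Between 350 and 1164 reads per library stood behind these values.

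Bbc3 encodes PUMA, a potent BH3-only protein and a classic p53 target. It stood at 4.62 and 4.90 RPKM in wild-type GMP and 15.0 and 11.6 RPKM in wild-type MEP. MEP was higher in both libraries, 2.79-fold by the means, and the difference was -1.30 ± 0.22 (limma, adjusted p = 0.00138). After deletion the lineages were closer, with 5.57 and 7.93 RPKM in GMP and 7.86 and 11.2 RPKM in MEP. Neither Runx1 difference was called: it was 0.41 ± 0.22 in GMP (0.297) and -0.45 ± 0.22 in MEP (0.275). XMP held 8.10 and 8.26 RPKM and overlapped deleted MEP.

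Pmaip1 encodes NOXA, whose main partner is MCL1. It was the lowest of the 10 and reached 1 RPKM only in the 4 GMP libraries, so it passed the filter through GMP alone. Tests of GMP against the other populations are therefore given with no filter, where its selection plays no part. Wild-type GMP held 1.19 and 1.08 RPKM (126 and 60 reads), and deleted GMP 2.95 and 2.03 RPKM (430 and 249 reads). Both deleted libraries were above both wild-type ones. Pmaip1 rose 2.19-fold in GMP, by 0.70 ± 0.15 (limma, adjusted p = 0.0239). This call was lost without wild-type replicate 1 (0.0689) or 2 (0.187) or deleted replicate 1 (0.284), and with quantile normalization (0.0811), median centring (0.0963) or a pseudocount of 0.1 (0.0955). Values outside GMP were 0.269 and 0.282 RPKM in wild-type MEP, 0.091 and 0.16 in deleted MEP and 0.36 and 0.432 in XMP, each from 9 to 50 reads. None of these 6 libraries reached a GMP library. Wild-type GMP exceeded wild-type MEP 4.13-fold, by 0.74 with no filter (adjusted p = 0.00651), and deleted GMP exceeded XMP 6.29-fold, a difference of -1.31 for XMP with no filter (0.000485). The first was lost with group weights (0.158). The size of these log2 differences depended on the pseudocount: at 0.1 and 5 they were 1.72 and 0.22 between wild types, -2.37 and -0.47 for XMP, and 1.04 and 0.29 for Runx1 deletion in GMP. Between deleted GMP and XMP the GMP genes moved the same way, from 7960 to 8250 RPKM summed to 160 to 191. After Runx1 deletion in GMP they moved against Pmaip1, down from 12100 to 12300 RPKM in wild-type GMP. In MEP the difference of Pmaip1 after Runx1 deletion was -0.18 ± 0.15 (0.516).

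The 5 BH3-only genes summed to 57.5 to 67.4 RPKM in GMP, 48.9 to 60.3 in MEP and 41.9 and 36.4 in XMP. Bid was the largest share in GMP (48.2% to 52.5%), while Bad was the largest in XMP (41.5% and 38.9%). Bbc3 took 7.1% to 12.6% in GMP and 15.4% to 24.8% in MEP. Bcl2l11 took 11.5% and 11.2% in deleted MEP against 3.5% and 5.9% in wild-type MEP. The plot of shares shows both classes.

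Counted by comparison, 5 of the 10 genes differed between wild-type GMP and wild-type MEP, 4 higher in GMP (Bak1, Bid, Bcl2 and Pmaip1) and 1 lower (Bbc3). Pmaip1 had entered the test only through its GMP libraries, so its place in this count and in that of XMP against deleted GMP is no support for a difference. Of all tested genes 21.6% were called there, 11.7% higher and 9.83% lower. Runx1 deletion in GMP gave 2 of 10, 1 higher (Pmaip1) and 1 lower (Bcl2), against 5.22% of all genes (3.15% higher, 2.07% lower). In MEP it gave 2 of 10, 1 higher (Bcl2l11) and 1 lower (Bcl2), against 8.0% (3.97% higher, 4.03% lower). XMP differed from deleted GMP in 3 of 10, 1 higher (Bcl2l1) and 2 lower (Bid and Pmaip1), against 19.7% (9.75% higher, 9.9% lower). From deleted MEP it differed in 2 of 10, 1 higher (Bcl2l1) and 1 lower (Bid), against 7.74% (5.14% higher, 2.6% lower). The comparisons share libraries: both Runx1 contrasts share their wild-type libraries with the lineage contrast and their deleted libraries with the XMP contrasts. Quantile normalization moved the share of higher genes among those called from 60.3% to 50% for deletion in GMP and from 66.4% to 54.3% for XMP against deleted MEP. Median centring moved the median of all genes by -0.107 in the GMP contrast, relative to which the Bcl2 difference there was -1.31 and that of Pmaip1 0.59 (adjusted p = 0.0963).

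**Figure D4:**
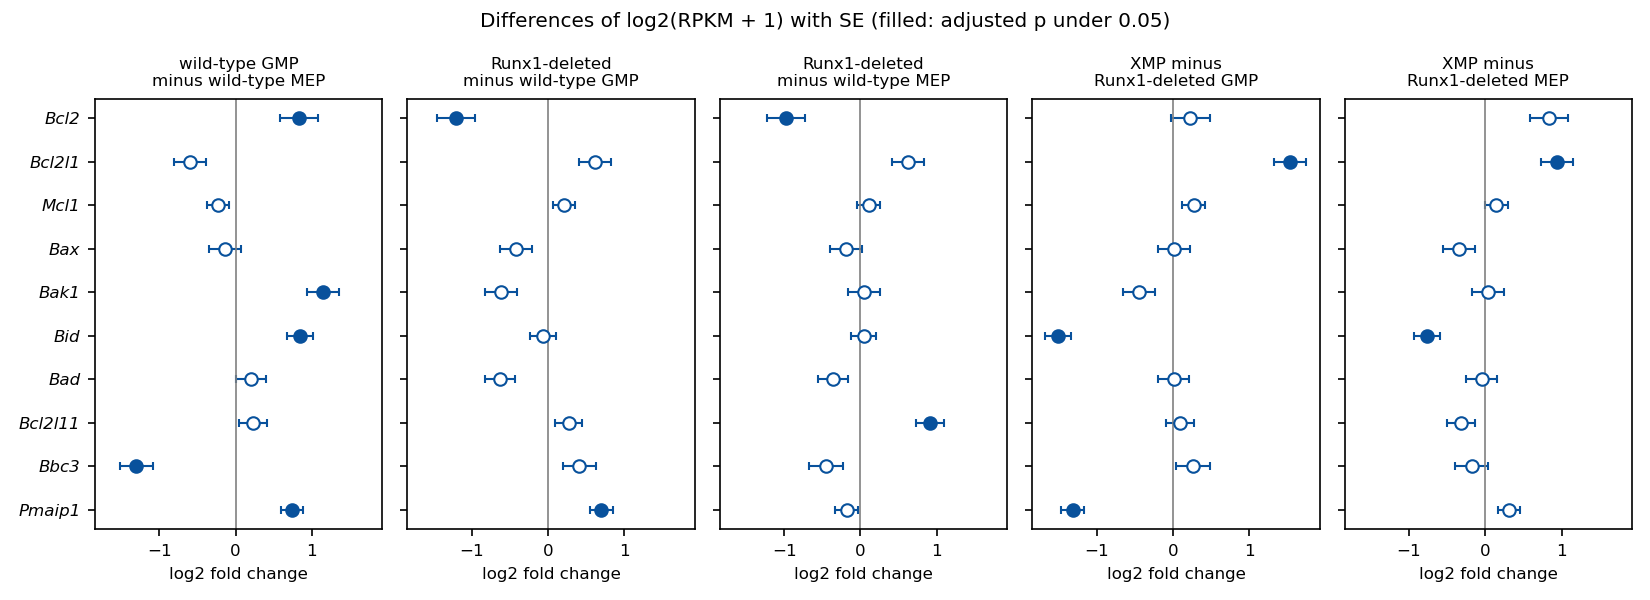
Differences of log2(RPKM + 1) (horizontal axis) with their standard error for the 10 genes in 5 comparisons; filled points have an adjusted p under 0.05. Bcl2 is filled to the left of 0 in both Runx1 comparisons (-1.2 and -0.97), and Bcl2l1 is filled to the right in both XMP comparisons (1.54 and 0.94).

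Whether the Runx1 effect differed between GMP and MEP was tested as the difference of the 2 effects. None of the 10 genes passed with limma, against 1.74% of all tested genes. An unadjusted p under 0.05 was found for 4 of 10, and for 1096 of the 10905 tested genes. For Pmaip1 the GMP effect exceeded the MEP effect by 0.88 ± 0.22 (adjusted p = 0.0866). It exceeded it for Bbc3 by 0.86 ± 0.32 (0.303), and the value was -0.67 ± 0.30 for Bak1 (0.48) and -0.64 ± 0.26 for Bcl2l11 (0.373). Without wild-type MEP replicate 2 the Bcl2l11 difference passed (0.05 after rounding). For Bcl2 it was -0.23 ± 0.35 (95% interval -1 to 0.53, 0.999) and for Bcl2l1 -0.01 ± 0.29 (-0.65 to 0.63, 0.999).

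Other genes of the pathway were read from 4 lists. Their counts stand beside these shares of all tested genes. Between wild types 11.7% were higher in GMP and 9.83% lower. Deletion gave 3.15% higher and 2.07% lower in GMP, and 3.97% and 4.03% in MEP. XMP had 9.75% higher and 9.9% lower than deleted GMP, and 5.14% and 2.6% against deleted MEP. Whether a list departs from these shares was not tested. Of 16 further BCL2 family genes, 7 were high enough to test. In the lineage contrast 1 was lower in GMP and none higher, Runx1 deletion gave 1 higher in GMP and 1 higher in MEP, and XMP had 2 higher than deleted GMP and 1 lower than deleted MEP. Their median difference in MEP after deletion was 0.24, against 0.03 over all tested genes, and it was -0.09 against 0.05 in GMP. Bnip3l, a mitochondrial protein of red cell maturation, stood at 23.4 ± 1.07 RPKM in wild-type GMP and 52.7 ± 0.0933 in wild-type MEP (-1.14 ± 0.16, limma, adjusted p = 0.000348). In XMP it was at 48.1 ± 3.05 RPKM, against 22.0 ± 1.67 in deleted GMP (1.10 ± 0.16, 0.000479). Bik, a BH3-only gene, was higher in XMP (2.37 ± 0.156 RPKM) than in deleted GMP (0.433 ± 0.0384), by 1.23 ± 0.17 (0.000272). These 3 calls held in every alternative. Bmf, another BH3-only gene, rose in GMP after deletion from 0.514 ± 0.137 to 1.37 ± 0.0692 RPKM (0.65 ± 0.15, 0.0283), and leaving out a GMP library ended this call (0.109 and 0.0923 for wild type, 0.171 and 0.216 for deleted), as did leaving out an XMP library (0.0512 and 0.05), quantile normalization (0.11), median centring (0.124), no trend (0.0519) or removal of the length trend (0.106). Bcl2l13 was 27.2 ± 0.405 RPKM in deleted MEP against 14.4 ± 3.87 in wild-type MEP (0.90 ± 0.19, 0.0157), a call lost without deleted MEP replicate 1 (0.0744) or 2 (0.108), under group weights (0.0918) or in a fit of just these groups (0.133). It was 14.3 ± 0.803 RPKM in XMP, lower than in deleted MEP (-0.88 ± 0.19, 0.0178), a call lost without any 1 of those 4 libraries (0.0881 to 0.13). The 4 Bcl2a1 genes, near-identical copies whose reads a counter can split, reached a group mean of at most 0.317 RPKM.

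Downstream of the pore, the list of 20 apoptosome, caspase and inhibitor genes was tested in full. GMP had 1 higher and 2 lower than MEP in wild type, and Runx1 deletion gave none in GMP and 1 higher in MEP. XMP had 1 higher than deleted GMP and 3 lower than deleted MEP. The list medians were -0.02 in GMP and 0.12 in MEP after deletion. Htra2, a mitochondrial protease that blocks caspase inhibitors once released, stood at 85.4 ± 7.61 RPKM in deleted MEP and was lower in XMP, at 49.6 ± 0.167 RPKM (-0.77 ± 0.15, limma, adjusted p = 0.012). That call was lost without deleted MEP replicate 1 (0.0985) or XMP replicate 1 (0.0892) or 2 (0.0879).

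The p53 list held 22 genes, of which 19 were tested. Wild-type GMP had 2 higher and 6 lower than MEP, deletion gave 1 higher and 1 lower in GMP and 1 lower in MEP, and XMP had 1 higher and 1 lower against deleted GMP and 3 higher and 1 lower against deleted MEP. Its median was 0.01 in GMP and -0.08 in MEP after deletion. Perp, like Pmaip1 a p53 target, reached 3.12 ± 0.448 RPKM in wild-type GMP against 0.355 ± 0.0721 in MEP (1.60 ± 0.15, limma, adjusted p = 1.39e-05), and 3.44 ± 0.314 in deleted GMP against 0.346 ± 0.0796 in XMP (-1.72 ± 0.15 for XMP, 8.66e-06). Cdkn1a, the cell cycle inhibitor p21, was higher in wild-type GMP (9.93 ± 0.358 RPKM) than in MEP (3.49 ± 0.28, difference 1.28 ± 0.18, 0.000352). After deletion it fell in GMP to 5.12 ± 1.02 RPKM (-0.85 ± 0.18, 0.0217), a call lost without wild-type GMP replicate 1 (0.0672) or 2 (0.169) or deleted replicate 1 (0.308) or 2 (0.0648). Gadd45a, a stress gene, reached 34.5 ± 11.2 RPKM in wild-type MEP against 12.1 ± 0.0915 in GMP (-1.40 ± 0.21, 0.00054). It was lower in XMP (11.2 ± 0.266 RPKM) than in deleted MEP (38.2 ± 4.28, difference -1.68 ± 0.21, 0.0011). Fas, a death receptor, was higher in XMP (1.99 ± 0.246 RPKM) than in deleted GMP (0.717 ± 0.129, difference 0.80 ± 0.15, 0.00256). Perp, Fas and the BH3-only genes Bik and Bmf averaged under 1 RPKM in the lower group of their comparisons, so that the filter admitted them through groups where they were higher. With no filter their calls held, for Perp at 0.00017 and 0.000144.

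Of 25 genes of survival signalling and of the turnover of BCL2 proteins, all tested, 1 was higher and 2 lower in wild-type GMP than in MEP. Deletion gave 3 higher in GMP and 1 higher in MEP, and XMP had 3 higher than deleted GMP and none called against deleted MEP. The medians were 0.17 in GMP and 0.08 in MEP after deletion, against 0.05 and 0.03 over all genes. Pim1, a kinase that phosphorylates BAD, was called in both lineages: it rose in GMP from 44.8 ± 18.8 to 136 ± 5.2 RPKM (1.65 ± 0.28, limma, adjusted p = 0.00528) and in MEP from 38.6 ± 0.368 to 82.5 ± 20.6 RPKM (1.06 ± 0.28, 0.0443). The GMP call was lost without wild-type replicate 2 (0.0827) or deleted replicate 1 (0.0568). The MEP call was lost without any 1 of the 4 MEP libraries (0.153 and 0.0571 for wild type, 0.0558 and 0.315 for deleted) or either deleted GMP library (0.0723 and 0.0722), and with quantile normalization (0.0559), median centring (0.0761) or no filter (0.129), among others.

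The genes most like the 3 members of widest log2 range (Bcl2l1, Bcl2 and Pmaip1) were taken by Pearson correlation of log2(RPKM + 1) over the 10 libraries among 3342 genes whose group means span at least 1. The libraries of a group are not independent points, and this is a description. Bcl2l1 was closest to Mylk (r = 0.983), Kdr (0.982) and Cxcr1 (0.976). Kdr, a receptor of blood vessel cells, ran from 0.0322 to 0.0352 RPKM in wild-type GMP to 18.9 to 24.1 in XMP. Bcl2 was closest to Diras2 (0.968), Rnf217 (0.945) and Ogfrl1 (0.930), and Pmaip1 to Reck (0.988), Lrg1 (0.986) and Cd33 (0.982), of which Cd33 is a surface protein of myeloid cells.

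The authors' deposited table gives FDR-corrected p-values of Baggerley's test for the same groups. There Bcl2l1 had 0.000373 for XMP against deleted GMP and 0.0476 against deleted MEP in the authors' deposited table. Bid had 0.000538 and 1 for these pairs in the authors' deposited table, and Pmaip1 0.935 for XMP against deleted GMP. Between the wild types the authors' deposited table gives 0.021 for Bak1, 0.107 for Bbc3, 0.111 for Bid and 1 for Bcl2 and Pmaip1. For Bcl2 the authors' deposited table gives 0.51 for deletion in GMP and 1 in MEP, for Bcl2l11 1 in MEP, and for Pmaip1 1 in GMP. Bcl2l1 in both XMP comparisons, Bid between XMP and deleted GMP, and Bak1 between the wild types passed 0.05 in limma and in the authors' deposited table. The other calls of the 10 genes passed in limma only. XMP against wild-type GMP was not tested with limma. For that pair the authors' deposited table gives 0.0057 for Mcl1, 7.32e-07 for Bcl2l1 and 0.0022 for Bid, with the other members above 0.05.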

How the data were processed

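The authors deposited 1 table of RPKM per gene and library. Per the file headers it also holds a raw and an FDR-corrected p-value from Baggerley's test for each pair of groups. RNA came from a peqGOLD TriFast extraction, and the labels' protocols name a TruSeq and a NEBNext kit without saying which library had which. The submitters' processing notes name mm9, and the aligner, counter and annotation were not given in the sources used here. Low RPKM values were whole reads within 0.01 read for 19335 genes, which gave each library's depth and each gene's length. Among the members this length equalled that of an annotated transcript for Bad only.

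Genes had to reach 1 RPKM in 2 or more libraries. They were tested with limma 3.58.1 in R 4.3.3 (trend, pseudocount 1, all 10 libraries, 1 mean per group, 5 residual degrees of freedom). Wild-type GMP was compared with MEP, both genotypes within each lineage, and XMP with each Runx1-deleted group. Members and lists were chosen with earlier results of these data known. Named beside the members were up to 3 called genes per list, comparison and direction with the smallest p, of which a selection is printed and some are not reported here, and the 3 genes most like the members of widest range. Alternatives were other scalings, filters and pseudocounts, fewer groups or lanes, group weights, removal of the length trend by loess (span 0.5), a replicate block and leaving out each library. Promoters are RefSeq windows of GRCm38.p6. A set filter left a whole chromosome out of the search, and no window was taken for Pmaip1, although it was called in GMP. The other 9 of 10 members had 15 windows, 10 of them outside exons.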

Additional observations from a re-analysis of the deposited data

How the results depend on the processing

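No member changed direction while called. Over all alternatives 1326 results of a member in a comparison stayed on their side of the threshold, 46 lost a call and 24 gained one. With libraries left out in turn the members called ranged from 4 to 5 between wild types, 0 to 3 for deletion in GMP, 0 to 3 in MEP, 0 to 1 for the difference of the 2 effects, 3 to 3 for XMP against deleted GMP and 0 to 3 against deleted MEP. Group weights left 2 members called between wild types, where they called 1325 of 10905 genes against 2352 in the main fit. For deletion in GMP, 1 member was called with quantile normalization, median centring, a pseudocount of 0.1, no filter or a filter at a mean of 5 RPKM. There were 5 when other groups were left out of the fit and 4 under group weights. Calls over all genes rose too, from 569 of 10905 in the main fit to 1931 of 10364 and 2023 of 10905. In MEP, 1 was called with a pseudocount of 5, no filter or a filter at a mean of 5 RPKM. It was 0 under group weights or when other groups were left out. Calls over all genes fell there too, from 872 of 10905 in the main fit to 219 of 10905 and 301 of 10152. XMP against deleted MEP gave 1 with no filter. A filter at a mean of 5 RPKM left 8 members to test. The cause was not tested. Lanes 4 and 5 alone hold no wild-type GMP library.

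Same-numbered libraries deviated together among wild-type MEP, deleted MEP and XMP (r of replicate differences 0.297, 0.365 and 0.782), but not with deleted GMP (-0.475 to -0.059) or wild-type GMP (-0.147 to -0.059). The numbers as labelled were therefore not taken to pair all libraries. The column headers also carry library numbers. Outside deleted GMP these were 25, 26, 28 and 29 for replicate 1 and 30, 31, 33 and 34 for replicate 2. Deleted GMP had 32 for replicate 1 and 27 for replicate 2, so by these numbers its replicates are crossed. The labels do not say what the library numbers stand for. A replicate block gave 5, 2, 2, 0, 3 and 2 members called in the order above, and changed no member's call. With the numbers of deleted GMP crossed, chosen after seeing the data, the counts were 6, 2, 3, 0, 3 and 2, and with the length trend removed beside the block, also added later, 5, 2, 2, 0, 3 and 3. Depth limits Pmaip1 most, with 9 to 50 reads outside GMP.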
